A study of Mus musculus with 6 samples.

Results

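The homeobox genes described here are those of the 4 HOX clusters and of 11 other families, to which *Msx1*, *Dlx1*, *Meis1*, *Pbx2*, *Lhx1*, *Six4*, *Irx1*, *Emx1*, *Pitx1*, *Prrx1* and *Satb1* belong. They were chosen by gene symbol alone and number 84 of the 23420 genes in the deposited table. The HOX clusters account for 39 of them and the other families for 45.

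The poly(A) part of total RNA from uteri was sequenced to compare mice with and without *Foxo1*, a forkhead transcription factor that acts in the uterine epithelium at the time of implantation. Females of strain C57BL/6J, 8 weeks old, were mated with vasectomized males and their uteri were taken on pseudopregnancy day 4.5. The control group, *Foxo1f/f*, was floxed at both *Foxo1* alleles and carried no Cre, and the knockout group, PgrCre/+ *Foxo1f/f*, carried the same alleles with Cre recombinase at the *Pgr* locus and is called *Foxo1d/d*. Each genotype had 3 libraries, and each library was a pool of RNA from 2 mice.

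Cre at the *Pgr* locus acts in every compartment of the uterus that has expressed the progesterone receptor, from birth, and in the pituitary and the ovary. By the study's own staining, the vessels of knockout uteri kept FOXO1 protein. Because the controls lack Cre, the Cre allele and the loss of *Foxo1* cannot be told apart. In RNA of a tissue with many cell types, fewer cells of a type and less RNA per cell cannot be told apart either.

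The values are the authors' mean raw counts per genotype, over the 3 libraries of each. Depth on genes averaged 26125014 counts per library in *Foxo1f/f* and 27257963 counts per library in *Foxo1d/d*. Each mean count was scaled by the column total of its genotype before the *Foxo1d/d* value was divided by the *Foxo1f/f* value. The range given with a ratio is a 95% Wilson interval from the summed counts, 78375043 and 81773890, called the counting interval, and it covers counting error only. Single libraries were not analysed here, so no difference below has been checked against the spread between pools. A gene is called measured where the mean of its 2 mean counts was at least 10, and a difference is counted where it was over 1.5-fold. CPM is a gene's count scaled to a total of 1000000. Levels are given as CPM per kb of exon, the scale on which genes of unlike length are compared. A gene with no count in *Foxo1f/f* can have had up to 0.0383 CPM, by the limit of 3 counts over the genotype, and up to 0.0367 in *Foxo1d/d*.

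Homeobox genes encode transcription factors that bind DNA through a shared fold, the homeodomain, and give cells their place and identity. HOX genes lie in clusters in the order in which they act along the body axis, and the genes near the posterior end of the clusters divide the Müllerian duct into oviduct, uterus, cervix and vagina. In the adult uterus HOXA10 and HOXA11 serve the response of the stroma to progesterone, and MSX1 and MSX2, which repress transcription, are made in the epithelium before implantation and are needed for a receptive uterus. MEIS and PBX proteins bind DNA beside HOX proteins.

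*Foxo1* itself, on chromosome 3, averaged 3941 counts in *Foxo1f/f* and 1456 counts in *Foxo1d/d*. It was 2.82-fold lower in *Foxo1d/d*, with a counting interval from 2.73 to 2.92. The floxed allele removes part of the gene, and the mean count covers reads on any part of it.

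Among the homeobox genes, 51 were measured, 23 had counts under the minimum and 10 had no count in either genotype. Of the 51 measured genes, 6 stood over 1.5-fold higher in *Foxo1d/d* (11.8%) and 0 stood over 1.5-fold lower. Over all 15696 measured genes of the table the shares past that threshold were 5.57% on the higher and 3.63% on the lower side. None of the 6 is a HOX gene, and *Msx1*, *Msx2*, *Dlx5*, *Dlx6* and *Prrx2* are described below. The median log2 ratio was 0.01 over the measured homeobox genes and 0.02 over all measured genes, and when ratios were centred on the median gene the former was -0.01. The median size of the log2 ratio, its sign left out, was 0.15 and 0.14 in turn. The counting interval lay above a ratio of 1 for 15 of the homeobox genes and below it for 14, and it held 1 for 22. Over the 15696 measured genes of the table these counts were 5760, 4289 and 5647.

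**Figure D1:**
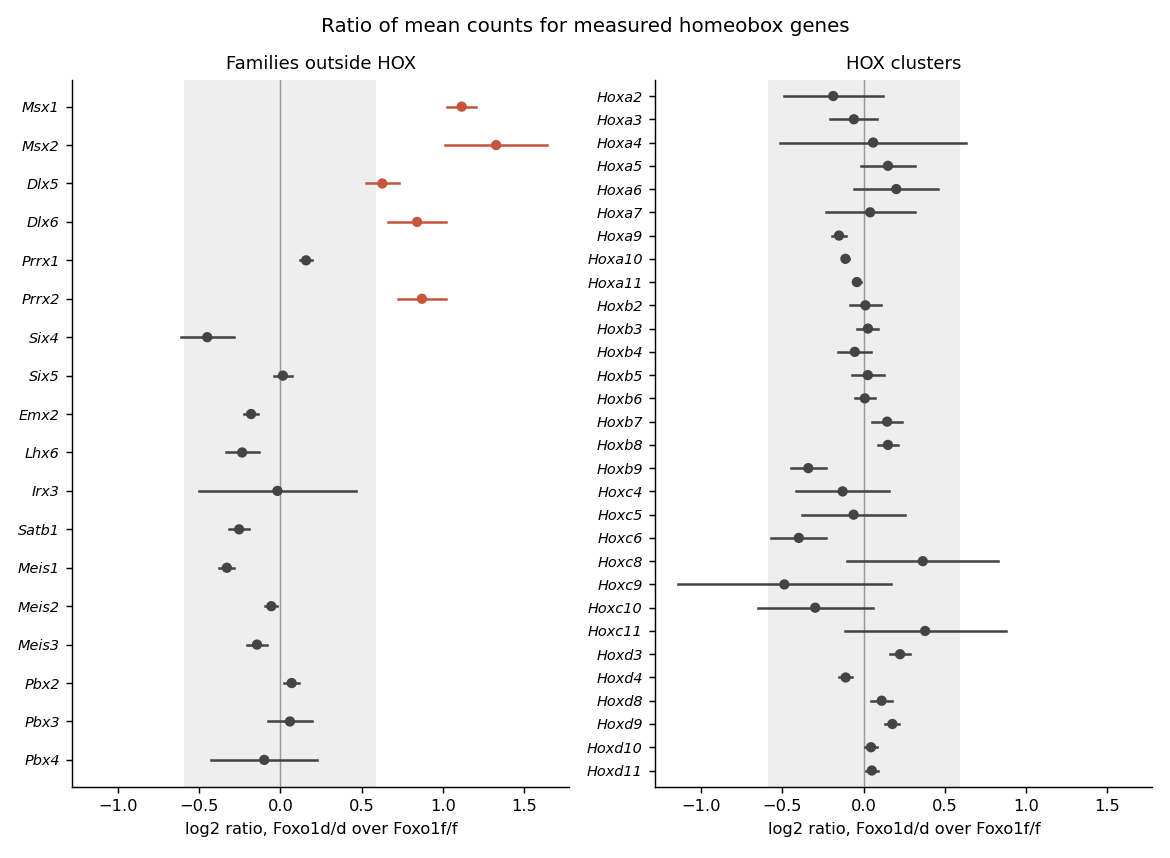
Log2 ratio of mean counts, *Foxo1d/d* over *Foxo1f/f*, for 48 of the measured homeobox genes (x axis), 18 outside the HOX clusters on the left and the 30 HOX genes on the right. Points are ratios of the authors' means, lines are 95% counting intervals, the grey band spans ratios under 1.5-fold, and the 5 genes beyond it, drawn in red, all lie on the left with higher counts in *Foxo1d/d*.

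*Msx1* and *Msx2* had the largest ratios of the measured homeobox genes. *Msx1*, on chromosome 5, stood at a level of 9.90 CPM per kb in *Foxo1f/f* and 21.5 in *Foxo1d/d*, 2.17-fold higher with a counting interval from 2.04 to 2.30. *Msx2*, on chromosome 13, stood at 0.588 and 1.48, 2.51-fold higher with an interval from 2.02 to 3.12. *Msx1* was thus the more abundant of the pair in both genotypes, and the intervals of the folds overlap. *Msx3*, a gene of the dorsal neural tube, had 0 counts over the 3 libraries of *Foxo1f/f* and 5 over those of *Foxo1d/d*.

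The promoters of *Msx1* and *Msx2* are shown because these genes had the largest ratios and were higher in *Foxo1d/d* together. The sequences are the 250 bases before the RefSeq start on GRCm38.p6, read 5′ to 3′ on the minus strand, which is the coding strand of both genes. The table of counts holds no coordinates, and the paper names mm10 as its genome while the labels name mm9. *Msx1* is taken from chr5:37824586-37824835 and *Msx2* from chr13:53472781-53473030, and capitals mark a match to a searched motif.
Msx1: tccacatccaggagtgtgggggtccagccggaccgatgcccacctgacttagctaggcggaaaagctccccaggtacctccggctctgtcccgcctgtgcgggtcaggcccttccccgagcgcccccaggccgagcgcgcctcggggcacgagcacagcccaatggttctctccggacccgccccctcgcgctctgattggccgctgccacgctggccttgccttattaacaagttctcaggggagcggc
Msx2: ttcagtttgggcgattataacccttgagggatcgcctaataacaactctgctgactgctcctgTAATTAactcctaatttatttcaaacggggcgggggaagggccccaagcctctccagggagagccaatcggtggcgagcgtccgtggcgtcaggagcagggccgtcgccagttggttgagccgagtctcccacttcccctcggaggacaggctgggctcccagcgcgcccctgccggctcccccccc

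Motifs of 3 kinds were searched on both strands, and none contains another. GTAAACA is the core bound by FOXO factors and reads TGTTTAC on the other strand. TAATTA is a core bound by many homeodomains and reads the same on both strands. AGAACA is a core of the element bound by the progesterone receptor and reads TGTTCT on the other strand. The *Msx1* promoter holds no match to the 3 motifs and has 68.0% G and C. The *Msx2* promoter holds 1 match, TAATTA, from 187 to 182 bases before the start, and has 61.6% G and C. The median over the 32851 RefSeq promoters of this length is 52.4%. Of these promoters, 4.84% hold TAATTA, 3.17% hold GTAAACA and 16.1% hold AGAACA. Counted per gene, over 27025 genes, the shares are 5.65%, 3.54% and 18.2% in the same order. A RefSeq promoter was matched for 53 of the 84 homeobox genes, and among these genes 3 hold TAATTA, 0 hold GTAAACA and 3 hold AGAACA. A match describes letters and is not a binding site, and the lack of one covers this window only.

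The DLX genes, vertebrate relatives of fly distal-less that pattern limbs, jaws and forebrain, had 2 measured members. Both were over 1.5-fold higher in *Foxo1d/d*, beside 5.57% of all measured genes. *Dlx5* averaged 417 counts in *Foxo1f/f* and 671 counts in *Foxo1d/d*, 1.54-fold higher with a counting interval from 1.44 to 1.66. That interval reaches under the threshold of 1.5. *Dlx6* had mean counts of 125 and 234, 1.79-fold higher with an interval from 1.58 to 2.03. In both genotypes *Dlx5* was the more abundant per kb, with levels of 11.2 and 17.3 CPM per kb against 2.16 and 3.87 for *Dlx6*. These genes lie 9.83 kb apart on chromosome 6 and are a pair in the genome, so they are not independent examples of the family. The other DLX genes were at the edge of detection, since *Dlx2* had no count and *Dlx1*, *Dlx3* and *Dlx4* had mean counts of at most 3.

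*Prrx1* and *Prrx2*, paired-related genes of connective tissue cells, differed in the size of their ratios. *Prrx2* averaged 183 counts in *Foxo1f/f* and 349 counts in *Foxo1d/d*, 1.83-fold higher with a counting interval from 1.65 to 2.03. *Prrx1*, the more abundant of the pair, stood at 12.7 and 14.2 CPM per kb, 1.12-fold higher with an interval from 1.09 to 1.15. The intervals of their folds do not overlap, which covers counting error and no spread between pools. *Prrx2* stood at 4.06 and 7.43 CPM per kb, so *Prrx1* was the higher gene in both genotypes.

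Genes of the *Six4* family act with EYA cofactors in muscle, kidney and sense organs. *Six4* itself, on chromosome 12, had mean counts of 228 and 174, 1.37-fold lower in *Foxo1d/d* with a counting interval from 1.22 to 1.53. *Six5*, which lies beside the myotonic dystrophy kinase gene, was the most abundant of the family at 23.4 and 23.6 CPM per kb, and its log2 ratio of 0.01 turned negative when ratios were centred on the median gene. *Six2*, *Six3* and *Six6* had no count.

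**Figure D2:**
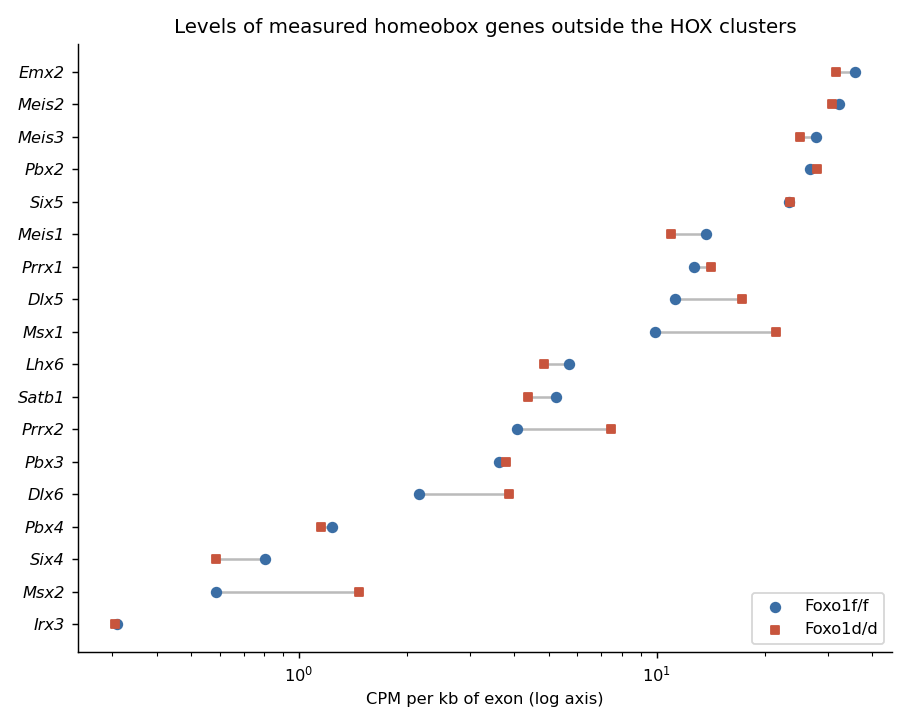
Levels of 18 measured homeobox genes outside the HOX clusters in CPM per kb of exon (log x axis), with *Foxo1f/f* as blue circles and *Foxo1d/d* as red squares. Points are the authors' means without an error, and of the genes drawn *Emx2* (35.9) had the highest level in *Foxo1f/f* and *Irx3* (0.310) the lowest.

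The HOX genes made up most of the homeobox transcript level, and none of those measured had a ratio past 1.5-fold. Of all measured genes, 5.57% lay past that threshold on the higher and 3.63% on the lower side. Of the 39 HOX genes, 30 were measured, 6 were under the minimum and 3 had no count. Their log2 ratios ran from -0.49 for *Hoxc9* to 0.38 for *Hoxc11*, genes with mean counts between 10.7 and 25.3 whose counting intervals both hold a ratio of 1. The median was 0.02, with 17 ratios above 1 and 13 below. When ratios were centred on the median gene it was under 0.01 in size with a negative sign, and *Hoxb2* and *Hoxb6* changed sign. The 21 measured genes outside the clusters had a median of 0.01, negative under the same centring, but a larger median size of the log2 ratio, 0.24 against 0.12 for the HOX genes. Summed over the family, the HOX level was 800.0 CPM per kb in *Foxo1f/f* and 794 in *Foxo1d/d*.

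The 4 most abundant homeobox genes per kb in *Foxo1f/f* were posterior HOX genes of groups 10 and 11. *Hoxa10*, which marks the uterine segment of the Müllerian duct and serves stromal progesterone responses in the adult, stood at 174 CPM per kb in *Foxo1f/f* and at 161 in *Foxo1d/d*. Its ratio was 1.08-fold lower, with a counting interval from 1.07 to 1.10. *Hoxa11*, needed for uterine glands and for decidualization, stood at 127 and 124, 1.03-fold lower with an interval from 1.01 to 1.05. *Hoxd11* and *Hoxd10*, their counterparts in the Hoxd cluster, followed. *Hoxd11* stood at 121 and 126 CPM per kb and *Hoxd10* at 75.1 and 77.5, with ratios 1.04-fold and 1.03-fold higher. *Hoxa9*, a gene of the oviduct segment, stood at 35.1 and 31.6 and was 1.11-fold lower with an interval from 1.08 to 1.14. *Hoxa13*, which marks the segment that forms the vagina and part of the cervix, had 2 counts over the libraries of *Foxo1f/f* and 5 over those of *Foxo1d/d*. Its ratio of 2.40 has a counting interval from 0.537 to 10.7, and a pseudocount of 5 took its log2 ratio from 1.26 to 0.17.

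Summed over the clusters, the level was concentrated in paralog groups 9 to 11, the sets of like-numbered genes toward the posterior end. In the Hoxb and Hoxc clusters, by contrast, *Hoxb6* and *Hoxc6* were the most abundant genes. Groups 9 to 11 held 73.5% of the summed HOX level in *Foxo1f/f* and 72.9% of it in *Foxo1d/d*. Groups 10 and 11 alone held 62.4% and 61.6%. *Hoxa10* by itself held 21.7% and 20.3%. Groups 12 and 13, at the far end, had no measured gene. There *Hoxb13*, *Hoxc12* and *Hoxc13* had no count, and *Hoxd13*, a gene of digits and the external genitalia, had 0 and 4 counts over the 3 libraries of each genotype. *Hoxd12* had 18 and 12 counts. The steep fall from group 11 to groups 12 and 13 was thus seen in both genotypes and in the 3 clusters with a measured gene of group 11.

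Split by position, the median log2 ratio was -0.05 over the 9 measured genes of groups 1 to 4, 0.11 over the 11 of groups 5 to 8 and -0.08 over the 10 of groups 9 to 11. Groups 5 to 8 thus had the highest of the 3 medians. The counting interval held a ratio of 1 for 7 of the 9, 7 of the 11 and 3 of the 10 genes in turn.

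The clusters differed in level far more than the genotypes did. The Hoxa cluster held 43.7% of the HOX level in *Foxo1f/f* and 41.6% of it in *Foxo1d/d*, and the Hoxd cluster held 41.0% and 42.8%. The Hoxb cluster, whose most abundant gene was *Hoxb6* at 27.1 and 27.3 CPM per kb, held 14.2% and 14.6%. The Hoxc cluster was weakest, at 1.10% and 0.933%, with *Hoxc6* as its most abundant gene.

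In the Hoxd cluster the counting intervals of 5 of the 6 measured genes lay above a ratio of 1 and that of *Hoxd4* below it, with log2 ratios from -0.11 to 0.22. In the Hoxa cluster 3 of 9 lay below 1 and none above, and these 3 are *Hoxa9*, *Hoxa10* and *Hoxa11*. Over all 15696 measured genes the interval lay above 1 for 5760 and below it for 4289. Among HOX genes with a counting interval that leaves out 1, the 2 with the largest differences were lower in *Foxo1d/d*. *Hoxc6* had mean counts of 213 and 168, 1.32-fold lower with an interval from 1.17 to 1.48. *Hoxb9* had mean counts of 510.3 and 421, 1.27-fold lower with an interval from 1.17 to 1.36. Its cluster neighbours *Hoxb7* and *Hoxb8* stood on the other side of 1, with log2 ratios of 0.15 each.

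**Figure D3:**
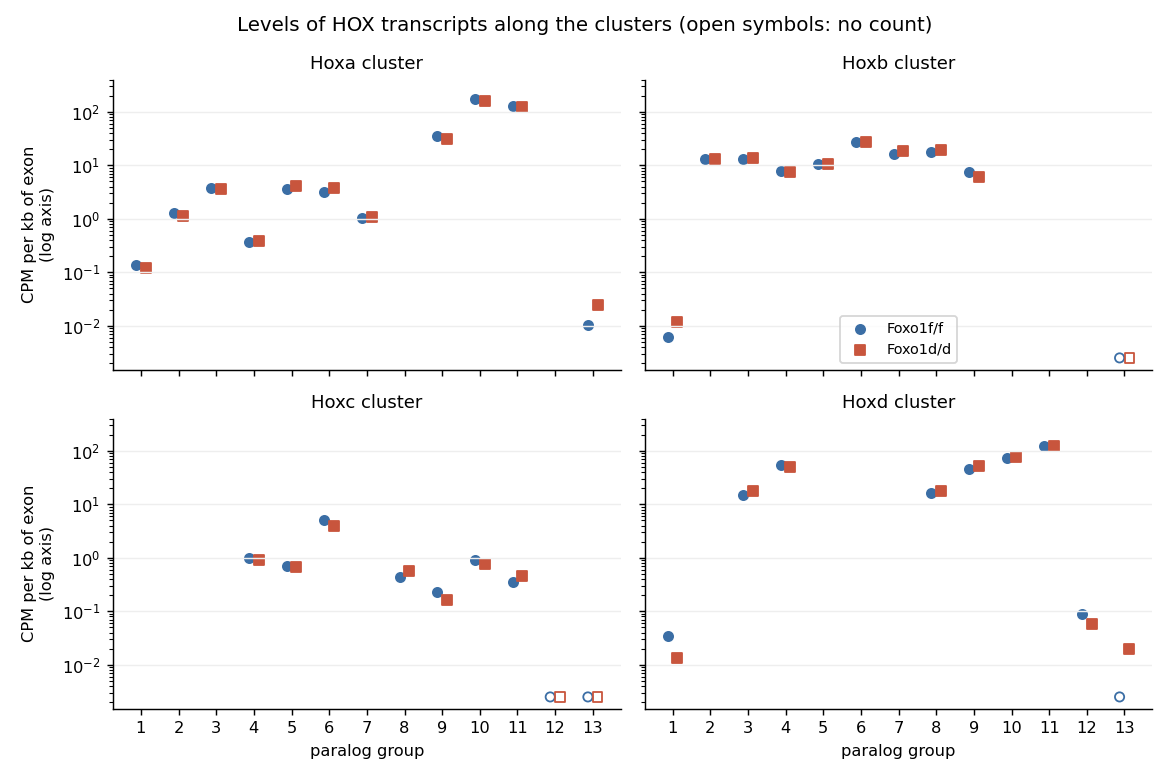
Level of each HOX gene in CPM per kb of exon (log y axis) against its paralog group (x axis), 1 panel per cluster, with *Foxo1f/f* as blue circles and *Foxo1d/d* as red squares. Open symbols mark genes with no count in that genotype, and the points are the authors' means without an error. The circles and squares of the measured genes lie close together, the levels of groups 10 and 11 are highest in the Hoxa and Hoxd clusters, and groups 12 and 13 are near 0.

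Several HOX spans overlap in the annotation, which limits how far neighbours can be read apart. *Hoxa3* overlaps the spans of *Hoxa4*, *Hoxa5* and *Hoxa6*, *Hoxb3* overlaps *Hoxb4*, *Hoxd3* overlaps *Hoxd4*, and *Hoxd10* overlaps *Hoxd11*. Whether the counting used the strand of the reads is not stated, so sense and antisense reads cannot be told apart.

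Partner proteins of the HOX factors, of the TALE superclass, had abundant transcripts with small ratios. *Meis1*, whose product binds DNA with HOX and PBX proteins, had mean counts of 2711 and 2250, 1.26-fold lower in *Foxo1d/d* with a counting interval from 1.22 to 1.30. *Meis2* was the most abundant gene of its family, at 32.2 and 30.9 CPM per kb. All 3 *Meis* genes had ratios below 1 with counting intervals that leave 1 out, from -0.33 to -0.06 on the log2 scale. Such an interval lay below 1 for 4289 of all 15696 measured genes. All 4 *Pbx* genes were measured and within 1.5-fold.

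TALE genes outside the families above, *Pknox1*, *Pknox2*, *Tgif1*, *Tgif2* and *Mkx*, were all 5 measured. Of these 5, 0 were past 1.5-fold, beside 5.57% of all measured genes on the higher and 3.63% on the lower side. Their median log2 ratio was 0.01, against 0.02 over all genes. *Tgif1*, a corepressor of retinoid and SMAD signalling and the most abundant of them per kb, had the lowest ratio, at -0.43 with mean counts of 2269 and 1756.

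The remaining families had at most 2 measured genes each. *Emx2*, which the urogenital tract needs to form, stood at 35.9 and 31.6 CPM per kb, 1.13-fold lower with a counting interval from 1.10 to 1.17. Its exons share 9.05% of their bases with an antisense gene. *Satb1*, a chromatin organiser best known in T cells, stood at 5.22 and 4.37, 1.19-fold lower with an interval from 1.14 to 1.24. *Lhx6*, a LIM homeobox gene known from interneurons, had mean counts of 549 and 487 and was 1.18-fold lower with an interval from 1.10 to 1.26. *Irx3*, an Iroquois gene, had mean counts of 22.3 and 23.0, with a log2 ratio of -0.02. No *Pitx* gene was measured.

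Among the 23 genes under the minimum, *Lhx2*, a LIM homeobox gene of forebrain, eye and hair follicle, lay closest to it. It had 41 counts over the libraries of *Foxo1f/f* and 16 over those of *Foxo1d/d*, 2.67-fold lower with a counting interval from 1.51 to 4.73. The others under the minimum had mean counts of at most 8 in either genotype. The 10 genes with no count are *Dlx2*, *Hoxb13*, *Hoxc12*, *Hoxc13*, *Irx4*, *Lhx4*, *Lhx5*, *Six2*, *Six3* and *Six6*. For these no difference was detectable at this depth.

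**Figure D4:**
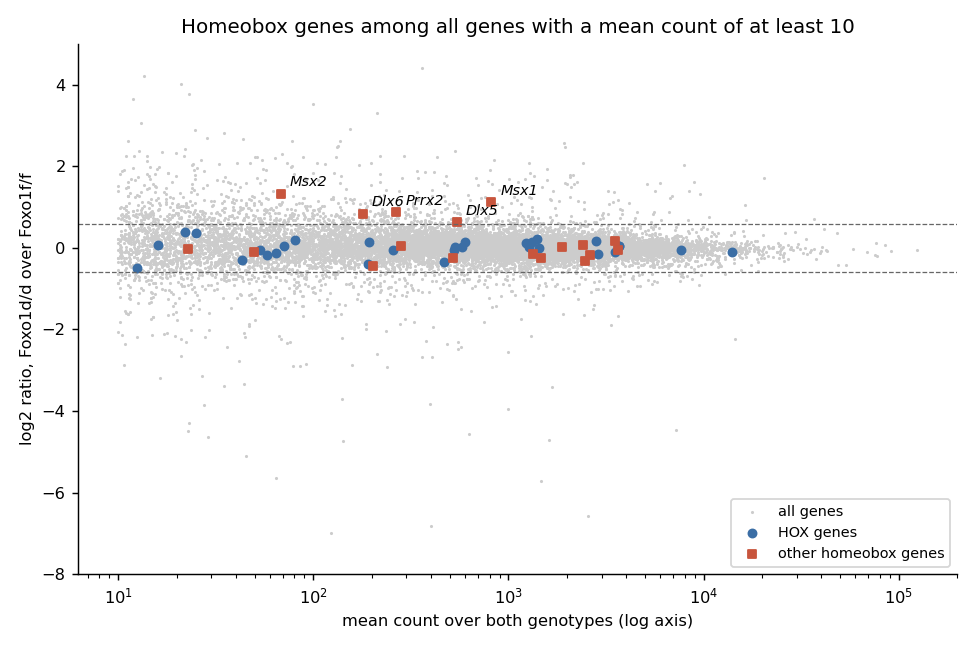
Log2 ratio of mean counts, *Foxo1d/d* over *Foxo1f/f* (y axis), against the mean count over both genotypes (log x axis) for the 15696 measured genes in grey, the 30 measured HOX genes as blue circles and 18 other measured homeobox genes as red squares. Dashed lines mark 1.5-fold in each direction, and the 5 labelled genes lie above the upper line while no marked gene lies under the lower one.

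Noncoding genes within the homeobox loci were compared with their partners. *Msx1as*, an antisense gene that overlaps *Msx1*, had mean counts of 133 and 286, at a log2 ratio of 1.05 with a counting interval from 0.87 to 1.22. *Dlx6as1*, which overlaps *Dlx6*, had mean counts of 72.0 and 141, at a log2 ratio of 0.90 with an interval from 0.67 to 1.14. Both thus stood on the same side as the gene they overlap. Because the use of strand in the counting is not stated, sense and antisense reads of such pairs cannot be told apart. *Hoxa11as*, an antisense gene at *Hoxa11*, had mean counts of 7767 and 6830, at a log2 ratio of -0.25 with an interval from -0.27 to -0.22. *Hoxd3os1*, listed as *1700109F18Rik* and overlapping *Hoxd3*, had 38.7 and 35.3, a log2 ratio of -0.19 whose interval holds a ratio of 1, while *Hoxd3* stood at 0.22. Of 4 measured microRNA loci in the clusters, 2 were over 1.5-fold lower, beside 3.63% of all measured genes. *Mir196b*, within the Hoxa cluster, had 88.0 and 59.7, a log2 ratio of -0.62, and *Mir10a*, within the Hoxb cluster, had 18.3 and 12.7, a log2 ratio of -0.59 whose interval ends just short of a ratio of 1. *Mir196a-1* stood at -0.24 and *Mir10b* at -0.06, with intervals that hold 1. Within the Hoxc cluster *Hotair*, which binds Polycomb proteins, had 36.3 and 28.7, a log2 ratio of -0.40 whose interval holds a ratio of 1. A count at a microRNA locus in such libraries does not measure the mature microRNA.

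The genes around the 6 homeobox genes past 1.5-fold were listed, taking the nearest 2 measured genes on each side. Of the 20 such genes that are not members of the families, 2 were over 1.5-fold higher, *Dlx6as1* and *Stx18*, and 0 were over 1.5-fold lower, beside 5.57% and 3.63% of all measured genes. *Stx18*, a syntaxin of the endoplasmic reticulum 212 kb from *Msx1*, had mean counts of 2162 and 5112, at a log2 ratio of 1.18 with a counting interval from 1.14 to 1.22.

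Regulators that set or erase HOX expression states showed no ratio past 1.5-fold. Of all measured genes, 5.57% lay past that threshold on the higher and 3.63% on the lower side. All 17 Polycomb genes, whose products keep HOX genes silent, were measured, with a median log2 ratio of 0.00. They ran from *Cbx7* at -0.50, with mean counts of 1434 and 1059, to *Jarid2* at 0.33, with 2430 and 3184. Of 8 Trithorax genes and other activators of HOX, 7 were matched to the table and measured, with a median of -0.02. *Mll1*, now called *Kmt2a*, the methyltransferase that keeps HOX genes active, had the lowest ratio, -0.39, with mean counts of 9083 and 7244. The medians of both lists lay near the 0.02 of all genes.

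Signals and receptors that act with these factors in the uterus were counted as lists. Of 17 BMP and WNT genes, 16 were measured, 3 stood over 1.5-fold higher and 2 stood over 1.5-fold lower, with a median log2 ratio of 0.00. Over all measured genes 5.57% stood on the higher and 3.63% on the lower side of that threshold. The higher genes were the ligands *Wnt5a*, *Wnt7a* and *Wnt11*, and the lower genes were *Sfrp4*, a secreted WNT antagonist, and *Nog*, which binds BMP ligands. *Wnt11* had mean counts of 659 and 1062, with a log2 ratio of 0.63. *Sfrp4*, the gene of this list with the most counts, had 9603 and 6116, a log2 ratio of -0.71. *Grem1*, another BMP antagonist, was under the minimum with 43 and 10 counts over the 3 libraries, a log2 ratio of -2.17 with a counting interval from -3.14 to -1.19.

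Of 8 genes that the field links to HOXA10 in the uterus, 7 were measured and 0 were past 1.5-fold, with a median of 0.12. They ran from *Ptger4*, a prostaglandin E receptor, at -0.28, to *Itgb3*, an integrin subunit, at 0.27. *Fkbp4*, a cochaperone of the progesterone receptor, had the most counts of that list and a log2 ratio of 0.24. *Igfbp1*, a decidual gene, was under the minimum with 21 counts and 1 count over the 3 libraries, a log2 ratio of -4.45 with a counting interval from -7.00 to -1.90. The steroid receptors *Pgr*, *Esr1* and *Nr3c1* were all 3 measured and within 1.5-fold, with a median of 0.07. For both lists the comparison is all measured genes, of which 5.57% stood over 1.5-fold higher and 3.63% over 1.5-fold lower.

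Markers of cell types were read beside these values, because the homeobox genes are made in different compartments. The 9 stromal markers, 9 smooth muscle markers, 9 epithelial markers and 9 endothelial markers were all measured, and these are the main compartments of the uterus. *Cyp19a1*, the aromatase of the ovary, had 0 counts over the libraries of *Foxo1f/f* and 1 over those of *Foxo1d/d*. Of the 6 ovarian markers, 3 were measured with a median log2 ratio of 0.03, and these 3, *Inha*, *Foxl2* and *Star*, were within 1.5-fold. Their list summed to 72.2 CPM in *Foxo1f/f* and 79.8 in *Foxo1d/d*, with the most counts on *Foxl2*, a gene that the uterus also expresses.

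Epithelial markers summed to 702 CPM in *Foxo1f/f* and 834 in *Foxo1d/d*, with a median log2 ratio of 0.28 and the most counts on *Cdh1*. Of the 9, 2 were over 1.5-fold higher, *Krt19* at 1.22 and *Wnt7a*, which the WNT list also holds, at 0.66, and 0 lower. The 4 gland markers summed to 742 and 60.2 CPM, with the most counts on *Prss29*, and their median was -2.21. Of these *Prss28* and *Prss29*, gland proteases, were over 1.5-fold lower, *Il8*, which is the table's name for *Cxcl15*, was higher at 0.96, and *Foxa2*, the factor that marks gland cells, stood at 0.04. Gland markers thus held ratios in both directions, and in *Foxo1f/f* most counts of the list lay on the proteases. Beside both lists, 5.57% of all measured genes stood over 1.5-fold higher and 3.63% over 1.5-fold lower.

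Stromal markers summed to 14348 and 14324 CPM, with the most counts on *Col3a1*, a median of -0.06 and 0 of 9 past 1.5-fold. Smooth muscle markers summed to 7251 and 5854, with the most counts on *Myh11*, a median of -0.27 and 0 of 9 past 1.5-fold. All 9 smooth muscle ratios were below 1. Endothelial markers summed to 1760 and 1496, with the most counts on *Pecam1* and a median of -0.21, and 0 of 9 were past 1.5-fold. Leukocyte markers summed to 520.1 and 632, with the most counts on *Lyz2* and a median of 0.38. All 9 had ratios above 1, and 2 were over 1.5-fold higher, among them the T cell gene *Cd3e* at 1.10. For each of these marker lists the comparison is all 15696 measured genes, of which 8657 had ratios above 1, 5.57% lay past 1.5-fold on the higher side and 3.63% on the lower.

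Markers of tissues that lie next to the uterus were counted as well. The paper's RNA methods say that cervices were discarded, in a passage on operated mice. Of 9 markers of stratified epithelium, 6 were measured, and the whole list summed to 17.3 and 29.5 CPM with the most counts on *Krt10* and a median of 0.33. *Krt5*, at mean counts of 37.0 and 236, and *Krt14* were over 1.5-fold higher, and *Dsg3* was over 1.5-fold lower. The 6 markers of oviduct and mesothelium summed to 317 and 315, with the most counts on *Wt1*, which uterine stroma expresses as well, and a median of 0.25. *Foxj1*, a factor of ciliated cells, alone among these was past 1.5-fold, with mean counts of 12.7 and 25.3. For both lists the comparison is all measured genes, of which 5.57% stood over 1.5-fold higher and 3.63% over 1.5-fold lower.

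The part that these shifts in cell type markers play in the ratios of the homeobox genes was not tested.

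**Figure D5:**
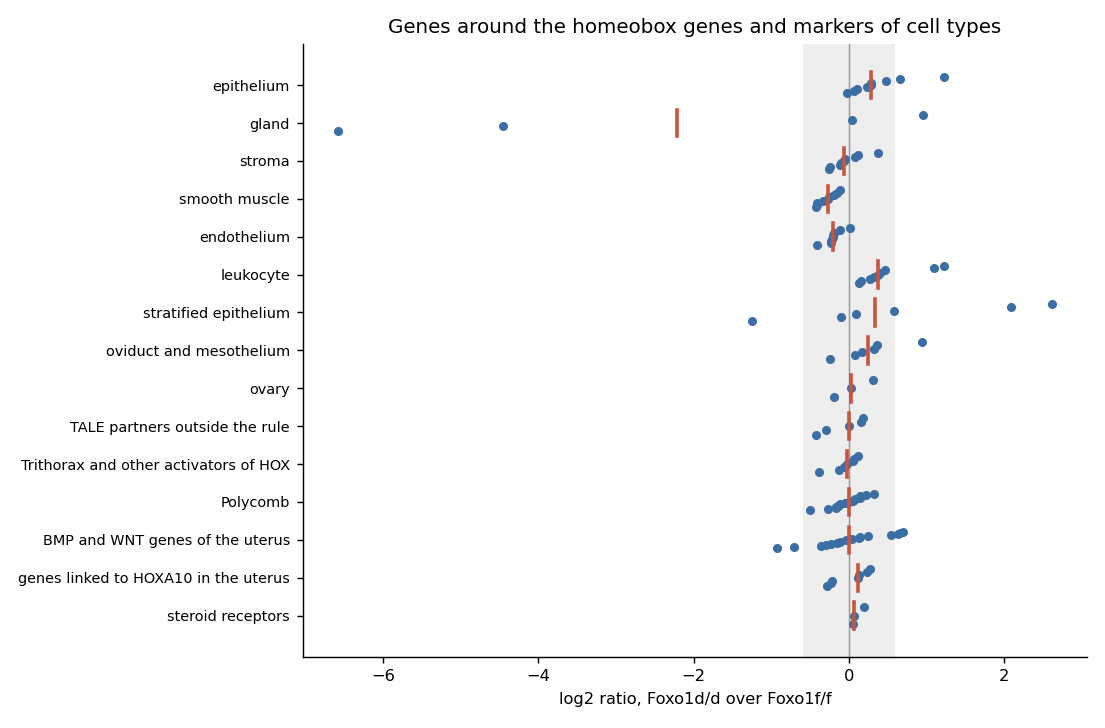
Log2 ratio of mean counts, *Foxo1d/d* over *Foxo1f/f* (x axis), for the measured genes of the 15 lists (rows). Blue points are genes, red bars are list medians and the grey band spans ratios under 1.5-fold. The gland list has the lowest median (-2.21) and the lists of HOX regulators lie inside the band.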

How the data were processed

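Poly(A) RNA-seq of uterus was analysed from 6 libraries, 3 per genotype. The authors trimmed the reads, used STAR for mapping and Picard against duplicates, took counts on RefSeq genes from HTSeq and ran edgeR, with no versions stated. The paper names mm10, and the labels name mm9. The values in the authors' deposited table are mean raw counts per gene and genotype, not scaled to depth, and 3 times each mean is a whole number. The table's other columns hold the authors' fold change, average log2 CPM, p-value and FDR, which were not used.

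Mean counts were divided by the total of their genotype with no pseudocount, and ratios got 95% Wilson intervals from the summed counts. No test between genotypes could be run on means. The floor was 3 counts over a genotype. Exon lengths came from GENCODE M21 basic and promoters from RefSeq on GRCm38.p6. Computation used Python 3.11.15, numpy 2.4.6, pandas 2.3.3, scipy 1.17.1 and matplotlib 3.10.9. Only the ratios and counting intervals were tested on simulated counts, which held counting error and no spread between pools.

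The members and the 15 lists were chosen with earlier results of these data known. Genes were named by rule: *Foxo1*, measured members over 1.5-fold different, the most abundant member per kb of each cluster or family, members with a known part in the uterus, members of lists by count with up to 4 examples, and members with no count. Other homeobox genes named singly, the noncoding and neighbouring genes, *Stx18* and the motifs were chosen after the values were seen. *Kmt2d* was left unmatched in its list, because the table's *Mll2* is an older name used for both *Kmt2b* and *Kmt2d*. The list's *Kmt2b* was matched to the gene that the table names *Wbp7*, and *Mll2* was not counted in the list. The single values of a few genes that the rule names are not reported here. Alternatives tried were 2 other scalings, a pseudocount of 5, other minimum counts and other fold thresholds.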

Additional observations from a re-analysis of the deposited data

How the results depend on the processing

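The count of 6 higher homeobox genes was the same with both other scalings. Of all genes, 5.26% were higher when centred on the median gene. The share was 5.56% with totals that left out the 100 genes with the most counts. With a pseudocount of 5, 5 of 51 members were higher, beside 4.83% of all genes. A minimum mean count of 50 left 42 members, of which 5 were higher, beside 3.85% of all genes. With at least 1 count in each genotype in place of the minimum of 10, 11 members were over 1.5-fold higher and 6 lower. This setting adds genes with few counts, and over all genes it gave 9.21% higher and 6.83% lower. A threshold of 2-fold left 2 of 51 higher, *Msx1* and *Msx2*, and 0 lower, beside 2.10% and 1.46% of all genes. A lower threshold, which must add genes, gave 8 higher members, *Hoxc8* and *Hoxc11* among them, and 5 lower members (*Hoxb9*, *Hoxc6*, *Hoxc9*, *Meis1* and *Six4*). Over all genes it gave 12.7% higher and 9.07% lower. The log2 ratio of *Msx1* ran from 1.09 to 1.12 and that of *Msx2* from 1.22 to 1.33 over the alternatives. Of 63 values of 21 single members, 61 stayed within their counting interval. When centred on the median gene, *Hoxa10* left its interval, at -0.13, and *Hoxb6* (0.01 to -0.02) and *Six5* (0.01 to -0.01) changed sign within theirs. No value past 1.5-fold changed sign. The longest transcript as gene length, an alternative chosen after seeing the data, kept the most abundant member in 14 of 14 families and clusters.

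No paired analysis was possible because the table gives 1 mean per genotype. Leaving out each replicate and the replicate block were not run for the same reason. Depth limits the 23 members under the minimum and the 10 with no count, and the counting intervals hold no variation between pools. The ratios describe 2 groups of pooled mice. Exon lengths are those of the annotation and not of the transcripts the uterus makes.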

Other observations

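Homeobox genes outside these families were found by the gene names in the table, after the values above had been seen. Of 121 such genes, 54 had no count, 33 were under the minimum and 34 were measured. Among the measured genes 3 were over 1.5-fold higher in *Foxo1d/d* and 2 over 1.5-fold lower, with a median log2 ratio of -0.07. Over all measured genes the shares were 5.57% higher and 3.63% lower. *Alx1*, a gene of craniofacial mesenchyme, was among the lower genes, with mean counts of 22 and 13.7.

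On the higher side, *Hopx*, an atypical homeodomain gene whose product does not bind DNA, had mean counts of 704 and 1151, at a log2 ratio of 0.65 with a counting interval from 0.57 to 0.73. *Barx2* had mean counts of 60.3 and 100.3, with a log2 ratio of 0.67. *Alx4* had mean counts of 32.3 and 58.0, with a log2 ratio of 0.78. *Tgif1* and *Zeb1*, a repressor of epithelial genes, were the most abundant per kb of the measured genes, with levels of 37.7 and 27.9 CPM per kb for *Tgif1* and 31.8 and 32.6 for *Zeb1*.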
